A study of Mus musculus with 8 samples.

Results

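Antibodies against surface proteins are the usual way to take the intestinal epithelium apart, and 8 of the genes for such antigens are described here: Cd24a, Cd44, Prom1, Epcam, Alcam, Itga6, Cd9 and Ptprc. They were chosen by name, as antigens by which intestinal stem and epithelial cells are sorted, together with CD45. All 8 were among the 23318 Ensembl genes of the deposited tables, and all 8 passed the filter on low values. RNA came from mouse small intestinal epithelial cells sorted on CD24, after cells positive for CD45 or bound by the Ulex europaeus lectin had been depleted from both fractions. There were 4 libraries of the CD24Mid fraction (numbers 1, 3, 5 and 7) and 4 of the CD24Neg fraction (numbers 2, 4, 6 and 8), described by the series text as biological replicates. The labels used here name no strain, age or sex. They do not say whether fractions came from the same animals, or whether neighbouring library numbers (1 and 2, 3 and 4, and so on) share a sort. The study compared the fractions for gene activity in intestinal differentiation. Because Cd24a encodes the antigen of the sort and Ptprc the antigen of the depletion, their values check the labels and are not findings about the cells.

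The epithelium of the small intestine is renewed from stem cells at the crypt base, and cells differentiate as they move up onto the villus. CD24 is a small, heavily glycosylated protein held in the membrane by a GPI anchor, and it is present on crypt cells, with high levels known on Paneth and enteroendocrine cells. CD44 binds hyaluronan and is a Wnt target of the crypt, prominin 1 (Prom1, CD133) sits on membrane protrusions, and integrin alpha 6 (Itga6, CD49f) binds laminin in the basement membrane. CD9 is a tetraspanin, EpCAM and ALCAM (CD166) are adhesion molecules, and CD45 (Ptprc) is the receptor tyrosine phosphatase of nucleated blood cells.

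Of the 8 genes, 5 were lower in CD24Neg, none was higher and 3 were not called at an adjusted p of 0.05 (limma with Benjamini-Hochberg adjustment over 12906 tested genes). The 5 lower genes were Cd44, Cd24a, Prom1, Cd9 and Itga6, and for each of them the highest CD24Neg library was under the lowest CD24Mid library. The fractions differed in most genes, with 68.3% of tested genes called in either direction, 34.3% called lower, 34% called higher and 63.8% without overlap of the groups. Calling 5 of 8 in either direction is therefore near the background of 68.3%. All 5 calls were lower, beside 34.3% called lower over all tested genes, and this shared direction was not tested. The call of Ptprc depends on whether neighbouring library numbers are taken as pairs, as given with its values. The median log2 fold change of the 8 genes (CD24Neg minus CD24Mid) was -1.31, beside -0.02 over all tested genes. These counts and this median include Cd24a and Ptprc, the genes of the sort and the depletion. The fall of Cd24a was set by the sort. In bulk samples, fewer cells of a type and less RNA per cell cannot be told apart.

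The start regions of 4 of these genes are shown with that of Ptprc, to set genes that fell (Cd44, Prom1, Cd9) beside an epithelial gene that was not called and beside the leukocyte gene. They are the 250 bases before the annotated start, from RefSeq on GRCm38.p6, 5′ to 3′ on the gene's strand. Capitals mark 3 motifs, each searched on both strands. One is the GC box, whose letters are GGGCGG. Another is the core bound by Tcf and Lef proteins, spelled CTTTGA. The last is the box of the TATA-binding protein, which was searched as TATAAA.
Cd44 (chr2:102901666-102901915, minus strand): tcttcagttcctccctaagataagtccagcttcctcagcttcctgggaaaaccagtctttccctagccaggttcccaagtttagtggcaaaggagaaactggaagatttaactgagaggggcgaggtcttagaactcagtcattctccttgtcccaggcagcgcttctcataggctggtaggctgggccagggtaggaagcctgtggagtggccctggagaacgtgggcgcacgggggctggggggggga
Prom1 (chr5:44101737-44101986, minus strand): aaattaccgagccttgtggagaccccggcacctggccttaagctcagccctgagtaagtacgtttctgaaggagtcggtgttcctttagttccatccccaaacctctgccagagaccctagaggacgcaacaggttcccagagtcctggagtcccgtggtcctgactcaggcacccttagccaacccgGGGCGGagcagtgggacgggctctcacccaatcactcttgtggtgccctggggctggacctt
Cd9 (chr6:125494761-125495010, minus strand): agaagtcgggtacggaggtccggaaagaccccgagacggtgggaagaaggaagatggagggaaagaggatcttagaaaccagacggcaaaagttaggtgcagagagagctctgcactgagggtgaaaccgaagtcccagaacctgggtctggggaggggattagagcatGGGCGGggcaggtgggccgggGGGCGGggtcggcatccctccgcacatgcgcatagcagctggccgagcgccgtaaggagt
Epcam (chr17:87635729-87635978, plus strand): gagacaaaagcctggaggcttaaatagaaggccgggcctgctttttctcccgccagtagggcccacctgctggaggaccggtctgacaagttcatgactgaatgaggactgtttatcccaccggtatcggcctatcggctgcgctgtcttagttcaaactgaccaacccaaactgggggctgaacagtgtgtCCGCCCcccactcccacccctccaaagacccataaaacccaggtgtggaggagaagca
Ptprc (chr1:138175306-138175555, minus strand): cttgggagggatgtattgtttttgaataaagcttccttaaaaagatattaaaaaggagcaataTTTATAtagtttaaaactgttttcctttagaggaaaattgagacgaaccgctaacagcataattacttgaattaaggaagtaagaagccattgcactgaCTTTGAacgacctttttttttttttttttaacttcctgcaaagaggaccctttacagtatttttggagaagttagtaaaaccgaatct
The table held start regions for 6 of the 8 genes, 8 regions in all, since Prom1 and Ptprc each had 2 annotated starts. GC content was 56.4% for Cd44, 59.2% for Prom1, 61.6% for Cd9, 56.4% for Epcam and 31.6% for Ptprc, beside a median of 52.4% over 32851 regions of the same length. The GC box occurred once in Prom1 and in Epcam, 2 times in Cd9 and not in the Cd44 or Ptprc windows shown, beside 32.7% of all regions with at least 1. A TATA box and a Tcf/Lef core each occurred once in the Ptprc window and in none of the other 4, beside 12.4% and 13.8% of all regions. In these 5 windows none of the 3 motifs was shared by Cd44, Prom1 and Cd9 and missing from the other pair. Windows not shown differed: the second ones of Ptprc (36.8% GC) and Prom1 (50.8% GC) held none of the 3 motifs. That of Alcam (69.2% GC) held 2 GC boxes and neither of the other motifs. A match describes letters only.

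The libraries differed between fractions in more than the sorted antigen. Values are expression estimates on the scale the authors deposited. They were taken as not divided by transcript length, from even steps in the low values, since the estimation step is not stated. Levels are therefore compared between samples of a gene and never between genes. The lowest values sat on even steps, and with 1 step read as 1 sequencing read the libraries held an estimated 17382300 to 19535000 reads in CD24Mid and 12508200 to 20596100 in CD24Neg. Mitochondrially encoded genes took 8.03 to 9.10% of all values in CD24Mid and 28.3 to 37.4% in CD24Neg. Epithelial markers (8 genes, 3 called higher and 2 lower) summed to 0.855 to 1.10% of nuclear-gene values in CD24Mid and 0.923 to 1.21% in CD24Neg. Both fractions thus carried the epithelial label, although single genes of the list moved in both directions. Crypt stem cell markers (8 genes, all called lower) went from 0.419 to 0.568% in CD24Mid to 0.0187 to 0.0413% in CD24Neg, and absorptive markers (8 genes, all called higher) from 0.137 to 0.237% to 2.98 to 4.86%. The Paneth list (9 genes, 2 called higher and 1 lower) overlapped between fractions, at 0.0140 to 0.0351% and 0.00906 to 0.0345%. Its called genes moved in opposite directions, Mmp7 at a log2 fold change of -2.24 and Defa22 and Defa21 at 1.68 and 1.71. Enteroendocrine markers (10 genes, none called higher and 8 lower) were at 0.0335 to 0.0791% and 0.00712 to 0.0105%. Goblet markers (8 genes, 5 called higher and none lower) were at 0.498 to 0.720% and 1.17 to 3.39%. Cck and Sct of the enteroendocrine list and Spdef, Agr2 and Spink4 of the goblet list were not called. Stromal, endothelial and erythroid lists each stayed at or below 0.000769% in every library, and the collagen gene Col1a2 was listed at 0 in all 4 CD24Mid libraries. The part of these cell types in the results below was not tested.

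The first comparison checked the sort. Cd24a (ENSMUSG00000047139) had values of 2246, 3693, 2558 and 2786 in CD24Mid libraries 1, 3, 5 and 7. In CD24Neg libraries 2, 4, 6 and 8 they were 350.0, 563, 287.0 and 456. The groups did not overlap, with a gap from 563 to 2246, and the CD24Neg libraries still held an estimated 199 to 335 reads of the gene each. The fit gave a log2 fold change of -2.79 (SE 0.22, limma adjusted p = 2.34e-06), 6.91-fold lower in CD24Neg. Among tested genes, 4.61% had a more negative log2 fold change. CD24Mid library 3, the highest in Cd24a, was also the highest of its fraction in Cd9 and in the Paneth list, but the lowest in Itga6, Epcam and Alcam. CD24Neg library 6, the lowest in Cd24a, was also the lowest in Prom1 and Cd9 and had the largest sum of absorptive markers. In Cd44 and Itga6 the lowest was library 2. These matches were picked after the values were seen, and no link between them was tested. Over the 8 libraries, the 5 genes with the closest gene-centred log2 profile were Rangrf, Maged1, Marcks, Cenpp and Ncapd2, at root mean square differences of 0.13 to 0.17 log2 units.

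**Figure D1:**
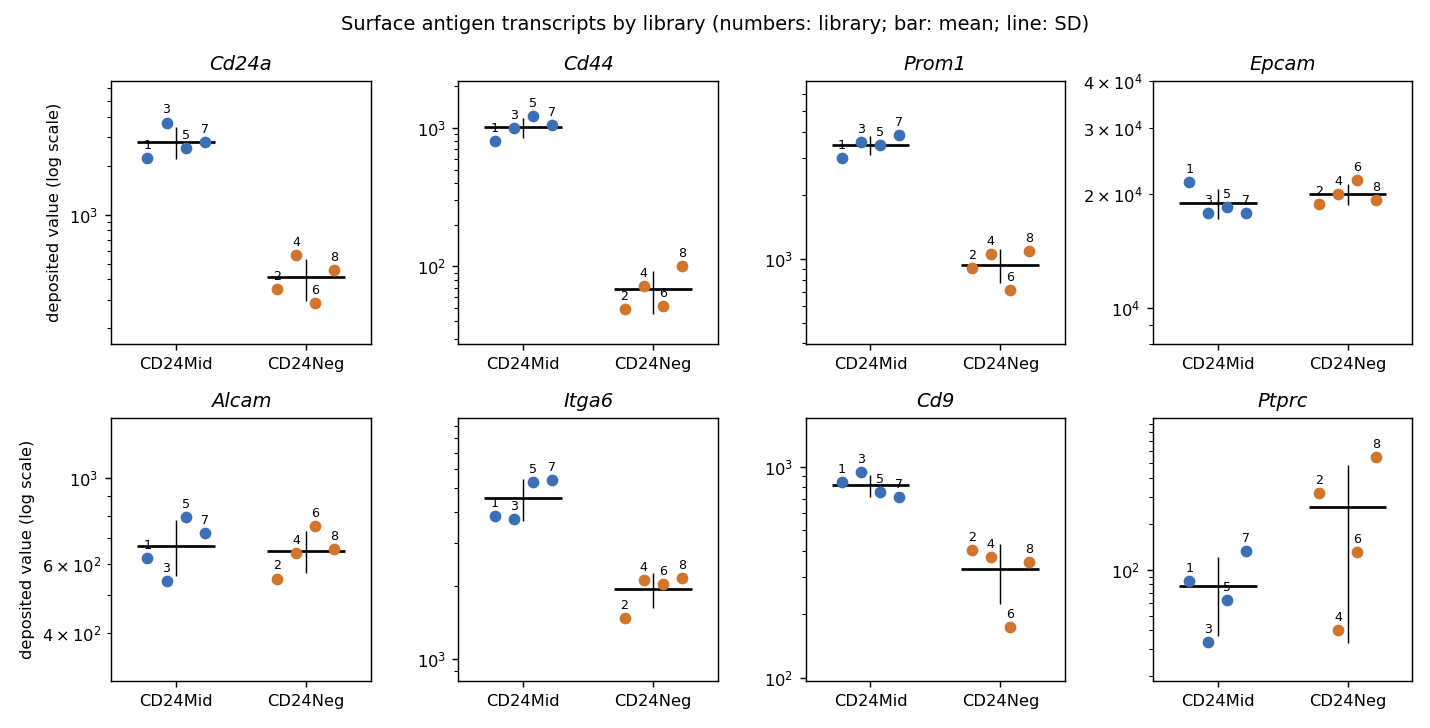
Deposited values (log axis) of the 8 surface antigen genes in each library, with CD24Mid in blue and CD24Neg in orange. Points are libraries with their numbers, bars are means and vertical lines are SDs (n = 4). Cd24a, Cd44, Prom1, Itga6 and Cd9 separate by fraction, Epcam and Alcam overlap, and Ptprc spreads from 39.96 to 551 within CD24Neg.

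CD44 and prominin 1, used as antigens of crypt stem and progenitor cells, had the largest and the third largest decrease of the 8 genes. Cd44 (ENSMUSG00000005087) was at 804, 1004, 1212 and 1052 in CD24Mid. In CD24Neg it was at 49.3, 72.4, 52.1 and 100.5. The groups did not overlap, with a gap from 100.5 to 804, and the log2 fold change was -3.93 (SE 0.23, limma adjusted p = 4.67e-07), 15.2-fold lower. Only 1.12% of tested genes had a more negative log2 fold change. Its CD24Neg values rest on an estimated 28 to 64 reads per library, against 1148 to 1996 in CD24Mid.

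Prom1 (ENSMUSG00000029086) was at 2992, 3573, 3455 and 3854 in CD24Mid. It was at 904, 1057, 714 and 1094 in CD24Neg, so that the transcript remained well above the lowest values in the fraction without CD24. The log2 fold change was -1.89 (SE 0.15, limma adjusted p = 2.15e-06), 3.71-fold lower, and 9.79% of tested genes had a more negative value. Within CD24Mid the Prom1 libraries differed by at most 1.29-fold, the smallest spread there among the 5 genes that fell. The closest profiles were that of Sox4 to Cd44 (root mean square difference 0.21 log2 units) and that of Gemin5 to Prom1 (0.10).

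Cd9 and Itga6 fell by less. Cd9 (ENSMUSG00000030342) was at 841, 947, 760 and 721 in CD24Mid and at 402, 375, 174 and 353 in CD24Neg, where library 6 stood below the others. Its log2 fold change was -1.39 (SE 0.24, limma adjusted p = 0.000525), 2.62-fold lower. Itga6 (ENSMUSG00000027111) was at 3837, 3750, 5286 and 5393 in CD24Mid and at 1470, 2108, 2027 and 2159 in CD24Neg. Libraries 5 and 7 were the higher pair in CD24Mid, and library 2 was the lowest in CD24Neg. Its log2 fold change was -1.23 (SE 0.17, limma adjusted p = 0.000107), 2.34-fold lower, and 17.0% of tested genes had a more negative value. The closest profile to Cd9 was that of Fam221a (root mean square difference 0.08 log2 units).

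Epcam and Alcam were not called. Epcam (ENSMUSG00000045394) was at 21549, 17801, 18470 and 17891 in CD24Mid and at 18897, 19991, 21882 and 19377 in CD24Neg. These ranges overlap, and the log2 fold change of 0.08 (SE 0.11, limma adjusted p = 0.532) had a 95% interval from -0.17 to 0.34. Epcam was also the steadiest of the 8 within CD24Neg, with a highest value 1.16 times the lowest. Alcam (ENSMUSG00000022636) was at 622, 542, 794 and 721 in CD24Mid and at 552, 643, 751 and 658 in CD24Neg. Its log2 fold change was -0.03 (SE 0.14, limma adjusted p = 0.835), with a 95% interval from -0.35 to 0.28. On this scaling the intervals hold ratios of CD24Neg to CD24Mid from 0.888 to 1.27 for Epcam and from 0.786 to 1.21 for Alcam, and a miss of the threshold does not show equality.

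The Epcam and Alcam results depend on how libraries are scaled. Scaled to totals without the 20 most abundant genes, Epcam became lower (log2 fold change -0.34, adjusted p = 0.0116) and so did Alcam (-0.46, adjusted p = 0.0129). Scaled to totals without mitochondrially encoded genes, the values were -0.38 (adjusted p = 0.00647) and -0.50 (adjusted p = 0.00875). Under quantile normalization Epcam was at -0.86 (adjusted p = 5.65e-05) and Alcam at -0.20 (adjusted p = 0.23). The scalings to totals move the median over all tested genes from -0.02 to -0.44 and -0.48, and the share of calls that are higher in CD24Neg from 49.8% to 30.4% and 28.9%. Of all tested genes, 22% were called higher and 50.3% lower with totals without the 20 most abundant genes, 21.1% and 51.9% with totals without mitochondrially encoded genes, and 31.4% and 35.6% under quantile normalization. Under both scalings to totals, Epcam lay above that median and Alcam just below it. Quantile normalization left the median over all tested genes at -0.06, and Epcam at -0.86 lay well below it. The 5 genes that fell were lower and called under each of these scalings.

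**Figure D2:**
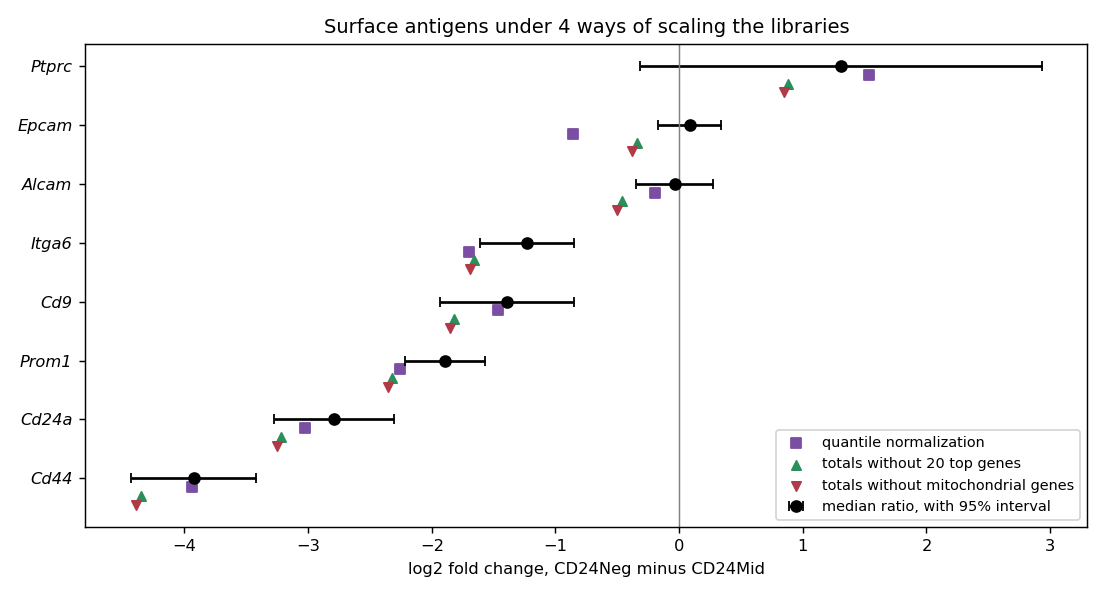
Log2 fold change (CD24Neg minus CD24Mid, horizontal axis) of each surface antigen gene. Black points are the fit centred on the median ratio with 95% intervals, and coloured marks are 3 other scalings. Cd44, Cd24a, Prom1, Cd9 and Itga6 lie below 0 under all 4, while Epcam moves from 0.08 to -0.86 and Alcam from -0.03 to -0.50.

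A ratio to Epcam within a library is not moved by a scaling factor. The log2 ratio of Cd24a to Epcam was -2.77 ± 0.41 (SD, n = 4) in CD24Mid and -5.64 ± 0.48 in CD24Neg, a difference of -2.87. Those of Cd44, Prom1, Cd9 and Itga6 differed by -4.02, -1.98, -1.48 and -1.31. All 5 were without overlap between fractions (exact two-sided permutation p = 0.0286 each, the smallest that 4 against 4 libraries can give, adjusted p = 0.04 over 7 ratios). The ratio of Alcam to Epcam, at -4.83 ± 0.29 and -4.95 ± 0.11, was not called (exact permutation p = 0.457). Cd24a, Cd44, Prom1, Cd9 and Itga6 transcripts thus fell relative to Epcam transcripts in every CD24Neg library. For Cd24a, the antigen of the sort, this ratio and its p-value check the labels only.

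Ptprc was the one gene of the 8 with a large spread inside a fraction. Its values (ENSMUSG00000026395) were 83.9, 33.5, 63.2 and 133 in CD24Mid, and 316, 39.96, 130 and 551 in CD24Neg. Libraries 2 and 8 stood above every CD24Mid library, whereas libraries 4 and 6 fell inside the CD24Mid range. The highest CD24Neg value was 13.8 times the lowest, against 3.97 times in CD24Mid, and 97.9% of tested genes had a smaller SD of log2 values within CD24Neg. The difference was not called (log2 fold change 1.31, SE 0.73, 95% interval -0.32 to 2.93, limma adjusted p = 0.135). It passed without CD24Neg library 4 (2.01, adjusted p = 0.00933) and was at 0.07 (adjusted p = 0.927) without libraries 2 and 8, within adjusted p of 0.00600 to 0.927 over 19 alternatives. Taking neighbouring library numbers as pairs, a choice made after the data were seen, Ptprc was higher in the CD24Neg library of 4 of 4 pairs. With these pairs as a block in the fit it was called higher (log2 fold change 1.31, limma adjusted p = 0.00600), as were 36.7% of tested genes in that fit, with 37% called lower. Across 12906 tested genes, deviations from the fraction means correlated at 0.28 to 0.33 within the 4 pairs, a description over genes of one library each. The correlation was not taken between libraries of different pairs, so it cannot show whether neighbours are more alike. No label states this pairing.

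T cell transcripts were high in the CD24Neg libraries that were high in Ptprc. The T cell and intraepithelial lymphocyte list (13 genes, 10 called higher and none lower in CD24Neg) summed to 0.0727% of nuclear-gene values in CD24Neg library 2, 0.0551% in library 8, 0.0106% in library 6 and 0.00389% in library 4. The CD24Mid libraries held 0.00119 to 0.00352%. Libraries 2 and 8 were thus the highest in both Ptprc and this list, and library 4 the lowest of CD24Neg in both. The defining genes, picked here after their values were seen, were above 0 in every library: Cd3e, a chain of the T cell receptor complex, ran from 5.29 to 23.0 in CD24Mid and from 19.8 to 326 in CD24Neg. Gzma, which encodes granzyme A, ran from 13.1 to 58.8 and from 212 to 3889. The list's sums did not overlap between fractions (exact permutation p = 0.0286, adjusted p = 0.0531 over 13 lists).

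B and plasma cell transcripts were higher in CD24Mid and did not follow Ptprc within CD24Neg, where libraries 4 and 8 both held 0.00522%. That list (10 genes, 6 called lower and none higher) summed to 0.0548 to 0.141% in CD24Mid and 0.00228 to 0.00522% in CD24Neg (exact permutation p = 0.0286, adjusted p = 0.0531). Igkc, the immunoglobulin kappa constant gene picked after its values were seen, ran from 2762 to 7113 in CD24Mid and from 148 to 360 in CD24Neg. Myeloid markers (11 genes, 1 called higher and 3 lower) overlapped, at 0.00450 to 0.00818% and 0.00186 to 0.00552%. Like Ptprc, this list was highest within CD24Neg in libraries 2 (0.00552%) and 8 (0.00547%), against 0.00186% in library 4 and 0.00188% in library 6. Within CD24Mid it fell from library 7 (0.00818%) to 1 (0.00706%), 5 (0.00502%) and 3 (0.00450%), the order of Ptprc there. These matches were seen after the values. Ptprc is known from all these cells, and their part in its values was not tested. The 5 genes nearest in profile to Ptprc were Ikzf2, Dock10, Ikzf3, Elk3 and St8sia4, at root mean square differences of 0.19 to 0.39 log2 units. Cd44, Itga6, Cd9 and Cd24a are also carried by leukocytes, and the part of the B and plasma cell transcripts of CD24Mid in their values was not tested.

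**Figure D3:**
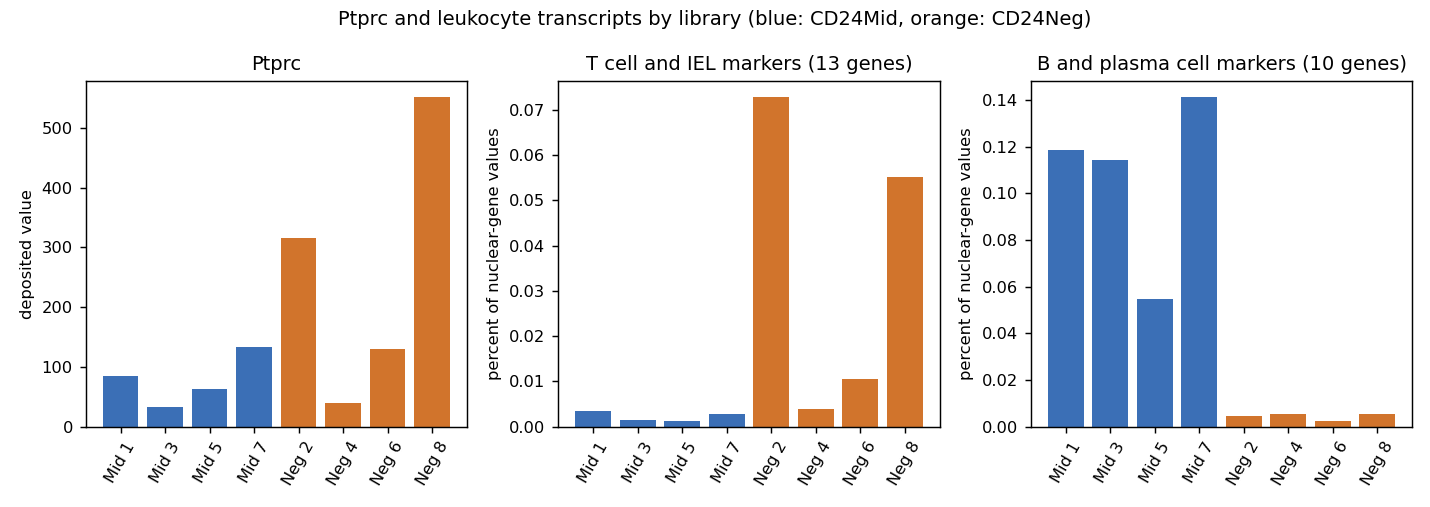
Ptprc (deposited value), T cell and intraepithelial lymphocyte markers, and B and plasma cell markers (both as percent of nuclear-gene values) in each library as bars from 0, with CD24Mid in blue and CD24Neg in orange. CD24Neg libraries 2 and 8 hold the most Ptprc and T cell transcripts, and the 4 CD24Mid libraries hold the most B and plasma cell transcripts.

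Partners and relatives of the 8 proteins were then read from 9 lists, which held 142 tested genes, 50 of them (35.2%) called higher and 35 (24.6%) lower in CD24Neg (median log2 fold change 0.13). Over all tested genes these shares were 34% and 34.3% (median -0.02), and the counts of each list below are to be read against them. Under the scaling to totals without mitochondrially encoded genes the shares over all tested genes were 21.1% higher and 51.9% lower, so lists move towards lower calls there with the whole table. Integrin alpha 6 pairs with the beta 4 chain in hemidesmosomes or with beta 1. Among 15 tested integrin chains and laminin receptors, 5 were higher and 4 lower (median -0.07). Itgb4 rose from 1693 ± 253 in CD24Mid to 3895 ± 187 in CD24Neg (SD, n = 4, 2.32-fold, limma adjusted p = 8.7e-06). Itga3, the alpha chain of another laminin receptor, rose 3.04-fold, Itgb5 rose 6.27-fold and Itga7 rose 9.42-fold from a low value of 17.4 ± 11.9. Itga5, the fibronectin receptor chain, fell 5.91-fold (111 ± 32.5 to 19.9 ± 10.5). Itgb1, named after its values were seen, was at 2848 ± 313 and 2700 ± 168 and was not called (adjusted p = 0.562).

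Itga6 was set beside both of its beta chains in a comparison chosen after the values were seen, which is given as a description with no test. The ratio of the Itgb4 to the Itga6 value was 0.529, 0.378, 0.319 and 0.304 in the CD24Mid libraries and 2.51, 1.82, 2.04 and 1.82 in the CD24Neg libraries. The shift in this ratio was 5.43-fold, and that of Itgb1 to Itga6 was 2.23-fold, each without overlap between fractions. They show a change in the ratio of transcripts, not the make-up of the receptor, since the values were taken as not per length.

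Genes of the structures that alpha 6 beta 4 joins moved in both directions. Of 10 tested hemidesmosome and laminin genes, 5 were higher and 3 lower (median 0.49). Plec, which encodes the linker protein plectin, rose from 1791 ± 244 to 13974 ± 1650, and Dst, which encodes dystonin, rose 5.36-fold. Lama3, an epithelial laminin chain, rose from 17.9 ± 6.63 to 963 ± 203, the largest increase in this list at 54.9-fold. Lamb2, another laminin chain, fell 6.58-fold from 74.2 ± 6.92. Cd151, a tetraspanin bound to laminin-binding integrins and named after its values were seen, was 1.65-fold higher (adjusted p = 0.000373).

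Tetraspanins moved in both directions. Of 24 tested tetraspanin and partner genes, 10 were higher, 5 lower and 9 not called (median -0.09). Cd82 rose 3.12-fold (1566 ± 279 to 4854 ± 453) and Tspan5, which guides the protease ADAM10, rose 7.47-fold. Tspan12, a tetraspanin of Norrin signalling, fell 5.16-fold, and Igsf8, an immunoglobulin superfamily partner of CD9 and CD81, fell 4.04-fold (644 ± 64.8 to 165 ± 54.6). With libraries scaled to totals without mitochondrially encoded genes, 7 were higher and 9 lower.

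EpCAM binds claudin 7 and is a substrate of membrane proteases. Of 12 tested genes in its list, 8 were higher and 2 lower (median 0.52), but 3 and 4 when scaled to totals without mitochondrially encoded genes, where all tested genes shift as well. Spint1, an inhibitor of the matriptase that cleaves EpCAM, rose 2.72-fold, and Cldn4 5.19-fold. The pore-forming claudins split: Cldn15 rose 1.73-fold (5561 ± 707 to 9640 ± 1460), while Cldn2, a crypt claudin, fell 3.83-fold (4047 ± 213 to 1088 ± 278).

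The CD44 list of ligand enzymes, linkers, sheddases and splicing regulators held 15 tested genes, 3 of them higher and 5 lower (median -0.06). Ezr, which encodes the linker ezrin of microvilli, rose 3.76-fold, and the hyaluronidase gene Hyal2 rose from 417 ± 85.1 to 1027 ± 57.5. Mmp14, a membrane protease that cleaves CD44, fell 3.39-fold (490 ± 24.0 to 149 ± 46.2). Esrp1, an epithelial splicing regulator known to act on CD44, fell 2.36-fold (2656 ± 167 to 1126 ± 82.0). CD44 isoforms were not analysed here. The count of 5 lower went to 3 without CD24Mid library 5, to 4 without any other single library, and to 8 with totals without mitochondrially encoded genes.

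For CD24, the list of ligands and GPI anchor enzymes had 28 tested genes, 4 higher, 6 lower and 18 not called (median -0.03). Hmgb1, a nuclear protein that CD24 binds when released, fell 3.65-fold (7341 ± 638 to 2011 ± 151). Pigc, of the first step of anchor synthesis, rose 1.72-fold, whereas Pigh of the same complex fell 1.53-fold and Pigu, a transamidase subunit, fell 1.52-fold. With totals without mitochondrially encoded genes, 1 was higher and 19 were lower, beside the 51.9% lower over all tested genes. The count of 4 higher went to 2 without CD24Mid library 3, CD24Mid library 5 or CD24Neg library 2, and to 1 without CD24Mid library 7 or CD24Neg library 4.

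Among prominin and ALCAM relatives, 4 of 10 tested genes were higher and 4 lower (median -0.08). The immunoglobulin superfamily gene Igsf9 rose 8.35-fold, the junction gene F11r 2.07-fold and Pvr 1.94-fold, and Bcam, a laminin receptor, fell 3.31-fold. Of 9 tested CD45 substrates and partners, 3 were higher and none lower (median 0.61). Src rose 2.39-fold, while Pag1 (1.57-fold higher) and Lyn (1.52-fold higher) lost their calls under totals without mitochondrially encoded genes (adjusted p = 0.29 and 0.423). Lck, the kinase of T cells, followed the Ptprc pattern, with 306, 6.82, 46.3 and 234 in CD24Neg and 7.56 to 35.1 in CD24Mid, and was not called (adjusted p = 0.149). Without CD24Neg library 4 it was called (log2 fold change 2.91, adjusted p = 0.00496), and 5 genes of this list were higher.

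Other surface antigens of the gut epithelium fell on both sides of the sort. Of 21 tested, 9 were higher, 7 lower and 5 not called in CD24Neg (median 0.25). On the crypt side, Ephb2, by which crypt cells are also sorted, was 5.44-fold lower, Lrig1 4.44-fold lower and Lgr5 14.0-fold lower. Lgr5 was at 555, 673, 876 and 696 in CD24Mid and at 38.9, 82.7, 35.4 and 49.9 in CD24Neg. Anpep (CD13), a brush border aminopeptidase, rose from 4055 ± 1661 to 81817 ± 17094, 21.2-fold.

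**Figure D4:**
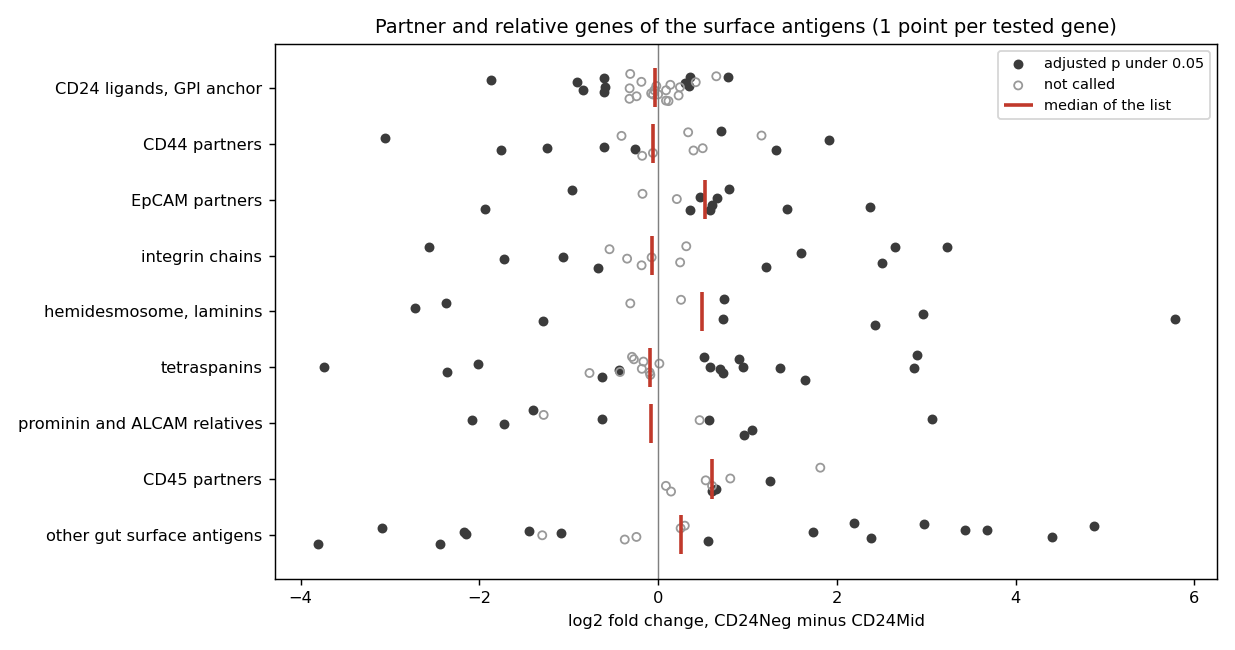
Log2 fold change (CD24Neg minus CD24Mid) of each tested gene in the 9 partner lists, with filled points for an adjusted p under 0.05, open points for genes not called and red bars for list medians. Every list except that of CD45 partners holds called genes on both sides of 0, and the medians lie between -0.09 and 0.61.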

How the data were processed

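Gene-level values were deposited by the authors for 8 libraries prepared from total RNA of sorted cells (TruSeq kit, per the labels' protocols). Per the file headers each library has 1 column, holding deposited signal values with decimals. Their median ratios (1.01 in all 8 libraries) were equal before any step here, so the values were on a common scale as deposited. Bowtie 0.12.8 and genome build NCBIM37 are listed in the submitters' processing notes, and the estimation step and annotation are not stated there. Groups came from the sample titles. Since these are no whole counts, a linear model on logs was applied. A gene entered if 4 or more libraries reached 10. Libraries were centred on the median ratio to the geometric mean, and limma 3.58.1 in R 4.3.3 modelled log2(value + 0.5) with trended, robust variance, no covariates and 6 residual degrees of freedom. Fold changes are on that scale, which understates the change of low genes. For single genes each adjusted p comes from limma with Benjamini-Hochberg adjustment and a threshold of 0.05. The fit was also run on simulated data with few changed genes, the same spread for every gene and no scale difference between libraries. That run cannot test the scaling on which Epcam and Alcam depend, or the spread of Ptprc. Ratios and list sums were tested by exact two-sided permutation of the libraries. Symbols came from GENCODE M21 by Ensembl identifier (21223 of 23318 matched). Start regions came from the RefSeq table on GRCm38.p6 and are not on the build of the files. Estimated reads assume that 1 step of the low values is 1 read, and whole reads were not restored. Reads of near-identical copies or of antisense genes cannot be separated here. The limma p-values set the difference between fractions against the spread between these libraries, with the variance moderated across genes. The permutation p-values rank the observed split among 70. Whether the libraries share animals or sorts is not stated in the labels. The genes and lists were chosen with earlier results of these data known. Named partner genes are up to 4 per list by adjusted p, plus the gene of smallest adjusted p in a direction these miss, and the 5 tested genes nearest in profile to each of the 8 genes were eligible too. Alternatives were 3 other scalings, no centring, 2 other filters, 2 other pseudocounts, no variance trend, each library left out, and CD24Neg libraries 2 and 8 left out. A block of neighbouring title numbers was added after seeing the data. Some genes are not reported here.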

Additional observations from a re-analysis of the deposited data

Results flagged for a closer look

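Among 130 groups of 4 libraries examined (the 8 genes, named partner genes, ratios to Epcam and marker sums), 10 held 1 library far from the other 3, where chance flags about 5% of groups. For the 8 surface antigens these were both in Cd9: the log2 ratio of Cd9 to Epcam was -4.23 in CD24Mid library 3 against -4.68 to -4.60 in the others, and -6.98 in CD24Neg library 6 against -5.78 to -5.56. Among partner genes, CD24Mid library 1 was high in Ezr (3667 against 2813 to 2888) and in Spint1 (2761 against 2092 to 2116), and CD24Mid library 3 was low in Dst (204 against 359 to 384). In CD24Neg, library 6 was low in Esrp1 (1004 against 1150 to 1176) and high in Pag1 (516 against 413 to 424) and Anpep (107408 against 72315 to 74776). CD24Neg library 4 was high in Tspan12 (151 against 93.3 to 102). The tuft marker sum of CD24Mid library 3 was 0.00132% of nuclear-gene values against 0.000495 to 0.000618%.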

How the results depend on the processing

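Cd24a, Cd44, Prom1, Cd9 and Itga6 remained lower and called under all 19 alternatives, with log2 fold changes of -3.25 to -2.62, -4.39 to -3.77, -2.36 to -1.76, -1.85 to -1.11 and -1.70 to -1.09. Epcam turned to -0.86 under quantile normalization, -0.34 with totals without the 20 most abundant genes and -0.38 with totals without mitochondrially encoded genes, and Alcam was called at -0.46 and -0.50 under both scalings to totals. Leaving out 1 library moved Ptprc between 0.76 and 2.01 and the number of the 8 genes called higher between 0 and 1. It was 1 without CD24Neg library 4, where Ptprc was at 2.01. With totals without the 20 most abundant genes 63 partner genes were lower, and with totals without mitochondrially encoded genes 65 were lower and 33 higher, in place of 35 and 50. Without mitochondrially encoded genes in the totals, these were 45.8% lower and 23.2% higher of 142 tested partner genes. Over all tested genes, 50.3% and 51.9% were lower under the 2 scalings to totals, beside 34.3% without them. The shares called higher were 22% and 21.1%, beside 34%, so the partner counts moved with the whole table. Lck went to -0.0902 without CD24Neg libraries 2 and 8. The ratios to Epcam kept their sign when each library was left out and when the summed epithelial markers replaced Epcam. Ratios with a library left out were taken as values, with no test. The cause of these changes was not tested. The fractions share no replicate number in the labels. In a paired fit added after seeing the data, with neighbouring title numbers as the replicate block, Ptprc was called at 1.31 (adjusted p = 0.00600), 1 of the 8 genes was higher and 5 were lower, 54 partner genes were higher and 40 lower, and no other call among the 8 genes changed. In that paired fit 36.7% of all tested genes were called higher and 37% lower. Depth limits Cd44 in CD24Neg (28 to 64 estimated reads) and Ptprc (24 to 349).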
